A study of Mus musculus with 11 samples.

Results

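Wild-type corpus callosum was compared with wild-type neurospheres across all genes counted. The comparison took the 3 libraries titled as wild-type callosum and the 3 titled as wild-type neurospheres, 6 of the 11 libraries of the series, by their labels alone. The callosum libraries hold total RNA of corpus callosum dissected from wild-type mice aged 8 to 10 weeks. The neurosphere libraries hold total RNA of primary neurospheres grown from the dissected and mechanically dissociated subventricular zone (SVZ) of wild-type mice of the same age and kept for 1 week in medium that held EGF at 20 ng/ml and heparin at 2 µg/ml. Intact tissue and a growth factor culture thus differ in anatomical origin, cell composition, culture and possibly library preparation at once, and these cannot be told apart. The labels do not say how far the dissection reached beyond the tract, whether the replicates are different animals or dishes, or which sex the mice were. The other 5 libraries, 2 of callosum and 3 of neurospheres labelled Bmal1-/-, served as a second set in which the same contrast was read. In that set the targeted gene, Arntl (Bmal1), had 462 to 1100 counts per library against 476 to 1080 in wild type, so its counts do not check the label.

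The corpus callosum is the tract of myelinated axons that joins the cerebral hemispheres. Its resident cells are mainly oligodendrocytes, which wrap axons in myelin, with astrocytes, microglia, oligodendrocyte precursors and blood vessels, while the cell bodies of most of the neurons whose axons cross it lie in the cortex. The SVZ lines the lateral ventricles and holds neural stem cells, their dividing progeny and migrating neuroblasts. EGF in culture keeps SVZ stem and progenitor cells dividing as floating clusters, the neurospheres.

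Gene counts summed to 17513165 to 17836955 per callosum library and 18829994 to 19717848 per neurosphere library. Of 14733 genes tested, 12645 were called different, that is 85.8% at a Benjamini-Hochberg adjusted p under 0.05 in edgeR's quasi-likelihood test. The callosum was higher for 6195 genes (42%) and the neurospheres for 6450 (43.8%). At least 8-fold differences were called for 1967 genes higher in callosum (13.4%) and 1689 higher in neurospheres (11.5%). The median absolute log2 difference over all tested genes was 1.59, against a median standard error of 0.17. Libraries of a source correlated at 0.983 to 0.995 (Pearson r of log2 CPM over genes) and libraries of different sources at 0.526 to 0.57. Because so many genes differed, each count given for a gene group is to be read against these shares. CPM are counts scaled to a common library size by TMM. All log2 differences are callosum minus neurospheres, given with their standard error (SE). In bulk RNA, fewer cells of a type and less RNA per cell cannot be told apart.

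Properties of the libraries moved with the source. The log2 difference followed the GC content of the transcript, with a Spearman rho of 0.57 over 14210 genes, a description across genes that share the same libraries. In 10 equal groups of genes, the group lowest in GC (31.0% to 41.6%) had a median log2 difference of -2.81, and the group highest in GC (58.1% to 82.2%) one of 1.90. Level per kilobase rose with GC content in the callosum libraries (rho 0.464 to 0.482) and had almost no trend in the neurosphere libraries (-0.0316 to -0.00503). When each library's trend with GC content and then transcript length was removed (GC-adjusted values), 11782 genes were called, 9104 of the calls (72.0%) were called in the same direction, and 2304 (18.2%) changed sign. Of the 3656 calls of at least 8-fold, 3565 (97.5%) were called in the same direction after adjustment. GC-adjusted log2 values are given beside a log2 difference where adjustment changes the sign, ends the call or moves the value by over 1.5 times. The part of library chemistry, RNA quality and biology in the GC trend was not tested. Unmapped reads took 7.77% to 8.23% in callosum and 13.7% to 16.2% in neurospheres.

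**Figure D1:**
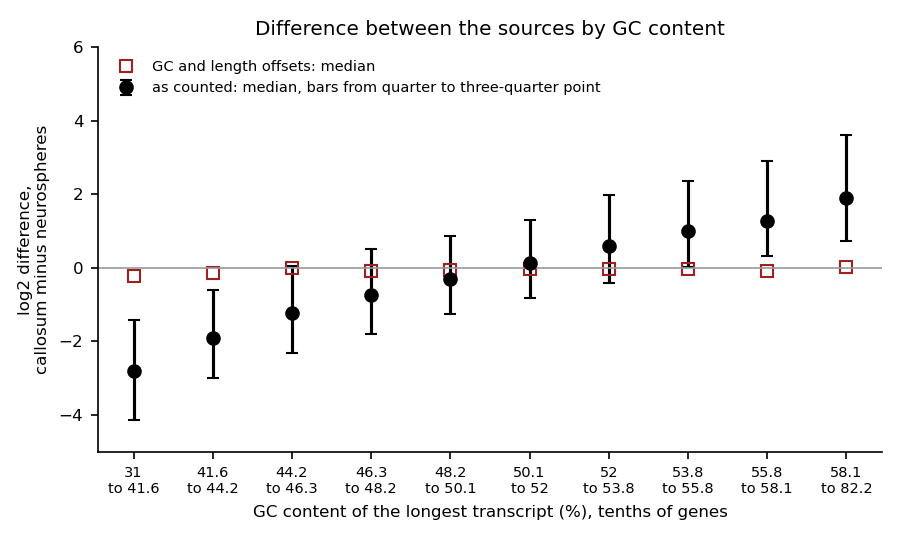
Median log2 difference (vertical axis, callosum minus neurospheres) of genes in 10 equal groups by the GC content of their longest transcript (horizontal axis, %). Filled circles are the values as counted with bars from the lower to the upper quartile, rising from -2.81 to 1.90; open squares are medians after GC and length offsets, between -0.216 and 0.0175.

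The sources also differed in sex-linked transcripts. Xist, the RNA that coats the inactive X chromosome in female cells, had 2, 4 and 1 counts in the callosum libraries and 42018, 55609 and 58725 in the neurosphere libraries. The Y-linked gene Kdm5d had 104, 141 and 102 counts in callosum and 0 in each neurosphere library, and Eif2s3y had 24, 42 and 22 against 0 in each. Ddx3y (21, 73 and 14 against 0, 1 and 0) and Uty (7, 10 and 9 against 0 in each) had the same pattern. These Y-linked genes were chosen after their values were seen. The sex of the source animals and the RNA source thus cannot be told apart. Of 508 tested X-linked genes, 148 were higher in callosum and 297 in neurospheres (29.1% and 58.5%), with a median log2 difference of -1.24 and, GC-adjusted, of -0.298. Xist overlaps a gene on the opposite strand and the counts used no strand.

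Genes of mature oligodendrocytes were higher in callosum. Of 27 tested, 23 were higher in callosum and 2 in neurospheres, with a median log2 difference of 3.06 (GC-adjusted 2.93), against -0.0638 over all tested genes. Their summed level was 24900, 37700 and 33800 CPM in the callosum libraries and 2520 to 2690 CPM in the neurosphere libraries. Mbp, which encodes myelin basic protein, stood at 16520, 25030 and 22830 CPM in the callosum libraries and 547, 566 and 647 CPM in the neurosphere libraries, a log2 difference of 5.19 ± 0.20 (edgeR adjusted p = 1.72e-08). Mobp, another myelin protein gene, stood at 1402, 2139 and 1850 CPM against 109.8, 121 and 106 CPM (4.0 ± 0.18). Mag, the myelin-associated glycoprotein at the contact with the axon, stood at 1037, 1396 and 1361 CPM against 78.1, 75.1 and 64.9 CPM (4.12 ± 0.16, GC-adjusted 2.68). The groups did not overlap for any of these genes, as for 87.8% of all tested genes. Myelin transcripts were thus present in neurospheres too. Hapln2, a link protein at nodes of Ranvier, had the largest difference of the list, with means of 119.8 ± 23.4 CPM (SD, n = 3) and 0.612 ± 0.159 CPM. The 2 exceptions were Aspa, the aspartoacylase that breaks down N-acetylaspartate (-2.21 ± 0.36, GC-adjusted 0.47), and Anln, the cytoskeletal protein anillin that also acts in cell division (-1.28 ± 0.19, GC-adjusted -0.20). After GC adjustment 25 genes of the list were higher in callosum and none in neurospheres.

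Stages before the mature oligodendrocyte were split between the sources. Of 11 genes of committed precursors, 6 were higher in callosum and 5 in neurospheres. Bcas1, a marker of cells beginning to myelinate, stood at 719.9, 988 and 948 CPM in callosum and 59.6, 60.2 and 65.4 CPM in neurospheres (3.84 ± 0.15). Gpr17, a receptor of cells just before that stage, had means of 154 ± 21.6 CPM and 6.24 ± 3.58 CPM (SD, n = 3 each). Of 20 precursor genes, 7 were higher in callosum and 11 in neurospheres. Sox10, the transcription factor of the whole oligodendrocyte lineage, was higher in callosum (403, 621 and 571 CPM against 23.9, 54.9 and 65.4 CPM, 3.47 ± 0.35, GC-adjusted 1.40). Olig2, a lineage factor that SVZ progenitors also use, was higher in neurospheres (106, 123 and 109.6 CPM against 727, 373 and 367 CPM, -2.12 ± 0.26, GC-adjusted -3.72). Ptprz1, a receptor phosphatase of precursors and progenitors, stood at 31.2, 41.3 and 29.5 CPM in callosum and 3373, 3781 and 3595 CPM in neurospheres, a difference of -6.72 ± 0.18. The proteoglycan gene Cspg4 (NG2) was higher in neurospheres (-1.38 ± 0.37, GC-adjusted -3.08, edgeR adjusted p = 0.00615), with one neurosphere library at 79.3 CPM close to the callosum range of 68.7 to 77.8 CPM. For Pdgfra, a PDGF receptor of precursors, the groups overlapped (22.6, 32.1 and 24.4 CPM against 9.09, 34.6 and 41.5 CPM, -0.11 ± 0.44, GC-adjusted 0.32, adjusted p = 0.822 in edgeR). Without neurosphere replicate 1, Pdgfra was called higher in neurospheres (-0.54). Olig1, a relative of Olig2 used in the same lineage, was not called either as counted (-0.21 ± 0.20, GC-adjusted -2.08).

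Astrocyte genes differed in direction one from another. Of 24 tested, 8 were higher in callosum, 13 in neurospheres and 3 were not called, with a summed level of 14400 to 14900 CPM in callosum and 13400 to 16700 CPM in neurospheres. Slc1a3 (GLAST), the glutamate transporter shared by astrocytes and neural stem cells, was higher in neurospheres (278, 291 and 256 CPM against 2041, 2362 and 2198 CPM, -3.0 ± 0.12). Aldh1l1, a folate enzyme used to mark astrocytes, moved likewise (98.4, 90.5 and 89.5 CPM against 864, 855 and 839 CPM, -3.20 ± 0.11), as did the bicarbonate transporter gene Slc4a4 (-3.96 ± 0.16). Opposite to these, Clu (clusterin, an apolipoprotein secreted by mature astrocytes) stood at 2558, 2754 and 2667 CPM in callosum and 61.8, 73.6 and 80.1 CPM in neurospheres (5.21 ± 0.15), and the connexin gene Gjb6 differed by 6.69 ± 0.24. Gjb6 and Gja1, both astrocyte connexins, had opposite signs (Gja1 -2.28 ± 0.11, GC-adjusted -0.33). Slc1a2 (GLT-1), the main glutamate transporter of mature astrocytes, was slightly higher in neurospheres as counted and higher in callosum after GC adjustment (-0.47 ± 0.10, GC-adjusted 0.66). Gfap, the intermediate filament of reactive astrocytes and of SVZ stem cells, was not called (0.83 ± 0.46, GC-adjusted -0.34), and its neurosphere libraries (456, 152 and 102 CPM) spread across the callosum range (354, 488 and 419.8 CPM). Without neurosphere replicate 1, Gfap was called higher in callosum, at 1.71 on the log2 scale. With all 6 libraries, limma-voom (1.12) and the replicate block (1.15) also called Gfap higher in callosum. Apoe, the apolipoprotein that ranked among the 8 highest genes per kilobase in both sources, was not called as counted (0.34 ± 0.26, GC-adjusted -1.22). After GC adjustment Apoe was called higher in neurospheres (edgeR adjusted p = 0.000959).

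Genes of microglia, of vessels and of the ventricle lining were mostly higher in callosum. Of 23 microglia genes tested, 20 were higher in callosum and 1 in neurospheres (median 2.91). Csf1r, the receptor on which microglial survival depends, stood at 152, 166 and 159 CPM against 6.42, 3.44 and 2.85 CPM, and Tmem119, a marker specific to microglia in the brain, at 45.8, 46.8 and 41.6 CPM against 0.262, 0.132 and 0.0433 CPM. Cx3cr1, the fractalkine receptor, was at 4.81 CPM in neurosphere replicate 1 and at 0.97 and 0.562 CPM in the other two. The exception was Mpeg1, a pore-forming protein of macrophages (-2.82 ± 0.19, GC-adjusted -1.85). Endothelial genes numbered 13 higher in callosum and 2 in neurospheres of 17. The tight junction gene Cldn5 stood at 47.1, 57.7 and 41.3 CPM in callosum, with 2 counts over the 3 neurosphere libraries, a ratio of 1680 (95% exact counting interval 463 to 13800). The exceptions, Bsg and Slc2a1, are a chaperone of lactate transporters and a glucose transporter that many cultured cells use (-0.65 ± 0.13, GC-adjusted -1.97 and -0.87 ± 0.14, GC-adjusted -1.81). For mural cells and fibroblasts 12 of 17 were higher in callosum and none in neurospheres, among them Pdgfrb, the PDGF receptor of pericytes (63.8, 67.9 and 61.6 CPM against 2.54, 2.78 and 1.95 CPM). Of 16 ependymal genes 13 were higher in callosum, but Foxj1, the master factor of motile cilia, was not called (63.3, 108 and 125 CPM against 76.2, 76.5 and 83.2 CPM, 0.33 ± 0.21, GC-adjusted -1.68). Foxj1 was called higher in callosum without callosum replicate 1 (0.56) and higher in neurospheres after GC adjustment (edgeR adjusted p = 0.000137). The axonemal dynein gene Dnah6 had no count in neurospheres and was at least 109-fold higher in callosum (floor of 3 counts over the group). Ttr, the transthyretin of choroid plexus, had no count in neurospheres and varied over the callosum libraries (18.5, 39.2 and 171 CPM). Its call was lost without neurosphere replicate 1 (edgeR adjusted p = 0.0639). Of 5 tested macrophage and blood genes, 3 were higher in neurospheres and 1 in callosum, with a median of -1.33 (GC-adjusted 0.72). The macrophage mannose receptor gene Mrc1 was among the former (-2.64 ± 0.32, GC-adjusted -1.10). Globin genes could not be read: Hbb-bs and Hba-a1 are listed at 0 in all 11 libraries, although Alas2, the list's member higher in callosum and the first enzyme of haem synthesis in red cells, stood at 2.94, 3.37 and 3.29 CPM in callosum and 0.218, 0.309 and 0.216 CPM in neurospheres (3.66 ± 0.31).

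Neuronal genes gave the largest median difference of the 50 gene lists. Of 26 genes of mature neurons, 25 were higher in callosum, 1 was not called and none was higher in neurospheres, with a median log2 difference of 7.52 (GC-adjusted 6.77). Their summed level was 37200 to 48500 CPM in callosum and 1050 to 1180 CPM in neurospheres. Snap25, a synaptic vesicle fusion protein, stood at 1895, 1370 and 1731 CPM against 11.4, 9.13 and 6.88 CPM (7.51 ± 0.25, edgeR adjusted p = 6.82e-09). Slc17a7 (VGLUT1), which loads glutamate into vesicles of cortical neurons, stood at 3379, 2802 and 3517 CPM against 1.7, 1.1 and 1.82 CPM (11.03 ± 0.24). Nrgn, a calmodulin-binding protein of dendritic spines, stood at 7572, 5602 and 7329 CPM against 12.8, 6.92 and 8.57 CPM (9.50 ± 0.30). Nrgn was, with 4704 CPM per kilobase of its longest transcript model, the highest gene of the callosum libraries by this measure, with Mbp at 4474. A shorter transcript gives a higher value per kilobase, so the order of Nrgn and Mbp depends on the transcript taken. The transcription factor gene Neurod6 of cortical projection neurons stood at 146, 118 and 138 CPM and had no count in neurospheres, at least 3066-fold higher. Sst, the somatostatin gene of cortical and striatal interneurons, stood at 646, 560.0 and 635 CPM and 0.0874, 0.0882 and 0 CPM. Of 12 genes of cortical neurons 11 were higher in callosum, and of 13 of striatal neurons, 13. The exception, Rorb, is a nuclear receptor gene used in layer 4 neurons and elsewhere (7.66, 7 and 6.91 CPM against 217, 263 and 246 CPM, -5.07 ± 0.13, GC-adjusted -2.91). Libraries labelled corpus callosum thus held the markers of myelin together with those of neuronal cell bodies of cortex and striatum; the part of tissue next to the tract in the callosum values was not tested.

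**Figure D2:**
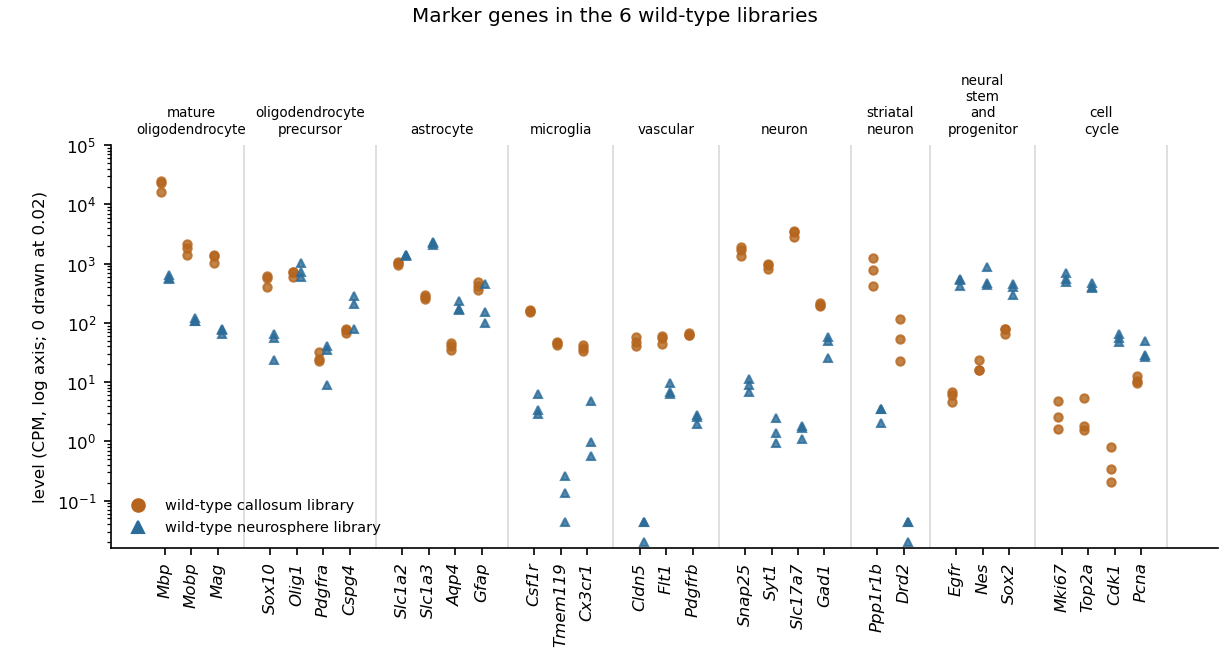
Level (CPM, log axis) of marker genes in each of the 6 wild-type libraries, grouped by cell type; circles are the 3 callosum and triangles the 3 neurosphere libraries, and values of 0 are drawn at the lower edge. Myelin, microglia, vascular and neuronal genes lie higher in callosum, stem, progenitor and cell cycle genes lie higher in neurospheres, and Olig1, Pdgfra and Gfap overlap.

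The callosum libraries differed from each other in regional genes. The summed level of the 13 striatal genes was 1650, 4600 and 2680 CPM in replicates 1 to 3. Ppp1r1b (DARPP-32), the dopamine signalling protein of striatal projection neurons, stood at 421, 1266 and 785 CPM, and Drd2, a dopamine receptor gene, at 23, 115 and 54.1 CPM. Replicate 2 was highest for both. Replicate 1 was instead highest for Cux2, a factor of upper cortical layers (161, 52.2 and 72.6 CPM), chosen after its values were seen. Genes of cortical neurons, with Cux2 among them, differed less and summed to 6580, 5550 and 6900 CPM, highest in replicate 3. The list of choroid plexus genes summed to 24.8, 49.7 and 186 CPM, highest in replicate 3. Without any one library in turn, the striatal median lay between 6.46 and 6.86. Even so, of 6801 genes with a mean of at least 20 CPM in callosum, only 0.0588% to 0.162% lay at least 2-fold above or below both other libraries.

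Genes of neural stem and progenitor cells were higher in neurospheres. Of 28 tested, 23 were higher in neurospheres and 2 in callosum, with a median log2 difference of -2.47. Egfr, the receptor for the EGF in the medium, stood at 4.65, 6.93 and 6.02 CPM in callosum and 421, 552 and 528 CPM in neurospheres (-6.41 ± 0.19, edgeR adjusted p = 4.84e-09). Nes (nestin), the intermediate filament of progenitors, stood at 15.9, 24 and 16.2 CPM against 881, 478 and 441 CPM (-5.0 ± 0.32). Fabp7, a fatty acid binding protein of radial glia and progenitors, stood at 0.547, 1.72 and 0.684 CPM against 624, 685 and 486 CPM (-9.23 ± 0.32). No library of one source reached the other for these genes. Sox2, a stem cell factor that adult glia also use, differed less (64.4, 78.6 and 79.2 CPM against 295, 410.1 and 454 CPM). The exceptions were Hopx, which is also a gene of mature astrocytes (30.6, 28.5 and 31.1 CPM against 2.14, 1.46 and 1.56 CPM), and the Notch effector Hes5. Hes5 was barely called (1.41 ± 0.57, GC-adjusted -0.48, edgeR adjusted p = 0.0428), and without any one of the callosum libraries or neurosphere replicate 2 the count of exceptions was 1. Hmga2, a chromatin protein of fetal stem cells, was near 0 in callosum (0, 0.198 and 0.0684 CPM) and stood at 54.4, 23.6 and 22.9 CPM in neurospheres. Neuroblast genes leaned the other way, with 14 of 19 higher in callosum and 4 in neurospheres. That list shares genes with neurons in general, such as the tubulin gene Tubb3 (5.58 ± 0.15). Dcx, the microtubule protein of migrating neuroblasts, was higher in neurospheres as counted (3.9, 3.04 and 2.53 CPM against 14.6, 10.5 and 10.5 CPM, -1.91 ± 0.23, GC-adjusted 0.50).

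Genes of G2 and M phase gave the lowest median of the 50 lists. Of 37 genes of these phases, 36 were higher in neurospheres and 1 in callosum, with a median log2 difference of -5.88 (GC-adjusted -4.77). Of 36 S phase genes, 32 were higher in neurospheres and 1 in callosum (median -2.68). Mki67, which coats mitotic chromosomes and marks cycling cells, stood at 1.64, 4.75 and 2.6 CPM in callosum and 692, 562 and 499.5 CPM in neurospheres (-7.60 ± 0.33). Top2a, the topoisomerase that untangles replicated DNA, stood at 1.57, 5.41 and 1.85 CPM against 476, 407 and 385 CPM, and Cdk1, the kinase that drives entry into mitosis, at 0.342, 0.792 and 0.205 CPM against 64, 55.8 and 47.4 CPM. Ccnb1, its cyclin partner, had no count in callosum and stood at 23.5, 20.6 and 18.7 CPM in neurospheres, at least 309.7-fold higher, although 42.1% of its 50-base stretches also occur in transcripts of other genes. Mcm2, an S phase gene for a subunit of the replicative helicase, differed less (9.58, 12.2 and 11.2 CPM against 107, 50.3 and 39.8 CPM). Pcna, the sliding clamp of DNA polymerase, differed by -1.67 ± 0.24 (GC-adjusted -0.25), with 31.8% of its 50-base stretches shared with other genes, and the ribonucleotide reductase subunit Rrm2 by -4.52 ± 0.34. The exceptions were Pttg1, the securin of anaphase (23.1, 24.4 and 26.2 CPM against 14.4, 14.5 and 13 CPM, 0.82 ± 0.12, GC-adjusted 2.02), and E2f1, an activator of S phase genes (1.28 ± 0.27, GC-adjusted -0.37).

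The promoters of these genes are shown because the genes moved together and the cell cycle is known to act on them through short promoter elements: CHR and CCAAT boxes for G2 and M phase, E2F sites for S phase. The windows run from 250 bases before to 50 after the start, from RefSeq on GRCm38.p6, read along the gene's strand. Capitals mark matches on either strand. CHR was searched as TTTGAA. The CCAAT box was searched by its own letters. E2F was searched as TTTCCCGC, TTTGGCGC or TTTCGCGC.
Mcm2 (chr6:88898731-88899030, minus strand): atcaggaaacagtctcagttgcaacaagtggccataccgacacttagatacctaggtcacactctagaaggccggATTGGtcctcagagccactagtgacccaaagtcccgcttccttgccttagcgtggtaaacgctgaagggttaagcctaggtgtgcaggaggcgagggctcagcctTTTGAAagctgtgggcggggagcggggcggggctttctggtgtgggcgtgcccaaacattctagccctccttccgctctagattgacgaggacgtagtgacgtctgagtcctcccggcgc
Pcna (chr2:132253131-132253430, minus strand): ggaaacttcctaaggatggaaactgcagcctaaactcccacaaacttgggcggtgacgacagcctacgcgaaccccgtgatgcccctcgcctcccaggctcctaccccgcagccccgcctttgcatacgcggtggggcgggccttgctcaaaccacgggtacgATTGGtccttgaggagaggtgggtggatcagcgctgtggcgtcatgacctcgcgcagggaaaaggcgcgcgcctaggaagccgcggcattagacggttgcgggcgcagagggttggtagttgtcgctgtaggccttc
Rrm2 (chr12:24708004-24708303, plus strand): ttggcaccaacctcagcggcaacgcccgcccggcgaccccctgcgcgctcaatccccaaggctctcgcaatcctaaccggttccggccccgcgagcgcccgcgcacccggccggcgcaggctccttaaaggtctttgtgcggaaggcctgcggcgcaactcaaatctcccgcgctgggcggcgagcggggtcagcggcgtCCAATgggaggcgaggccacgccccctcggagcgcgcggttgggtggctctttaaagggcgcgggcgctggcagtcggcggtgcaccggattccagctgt
Mki67 (chr7:135716330-135716629, minus strand): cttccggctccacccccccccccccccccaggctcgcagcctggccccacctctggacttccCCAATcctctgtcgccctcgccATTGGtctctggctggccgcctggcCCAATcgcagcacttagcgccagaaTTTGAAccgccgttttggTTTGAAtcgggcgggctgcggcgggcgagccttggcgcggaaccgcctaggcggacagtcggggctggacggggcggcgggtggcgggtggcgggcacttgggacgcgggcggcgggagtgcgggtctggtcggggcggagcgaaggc
Top2a (chr11:99024140-99024439, minus strand): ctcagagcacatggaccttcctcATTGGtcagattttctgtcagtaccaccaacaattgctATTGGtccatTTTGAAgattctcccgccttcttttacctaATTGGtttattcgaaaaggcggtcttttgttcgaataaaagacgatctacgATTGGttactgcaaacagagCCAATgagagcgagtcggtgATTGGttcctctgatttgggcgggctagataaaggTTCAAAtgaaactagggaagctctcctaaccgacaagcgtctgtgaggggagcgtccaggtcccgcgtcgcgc
Cdk1 (chr10:69352863-69353162, minus strand): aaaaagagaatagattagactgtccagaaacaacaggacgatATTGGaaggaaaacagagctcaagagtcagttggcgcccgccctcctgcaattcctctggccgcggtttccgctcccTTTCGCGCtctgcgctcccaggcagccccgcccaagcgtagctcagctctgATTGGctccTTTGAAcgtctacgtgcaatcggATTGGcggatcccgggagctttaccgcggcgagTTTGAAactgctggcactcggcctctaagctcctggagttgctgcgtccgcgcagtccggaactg
The S phase promoters of Pcna and Rrm2 have 1 CCAAT match each and no CHR match, and Mcm2 has 1 of each. Mcm2, Pcna and Rrm2 have no E2F match as searched. Mki67 has 2 CHR and 3 CCAAT matches, Top2a 2 and 6, and Cdk1 2 and 3 with 1 E2F match. Genes without a promoter window were left out of the shares that follow. CHR was found in 71.9% of 32 windows of 31 G2 and M phase genes and in 8.57% of 35 windows of 30 S phase genes. It was found in 11.5% of 14258 windows of the 11134 tested genes that had a window. CCAAT was found in 75%, 54.3% and 37.1%, and E2F in 3.12%, 37.1% and 3.16%. The CCAAT share was not particular to the cell cycle lists: it was 73.1% of 26 windows of 22 cholesterol synthesis genes. No matches overlap in the promoters shown. These shares describe letters in the windows and were not tested.

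Inhibitors of the cell cycle were higher in neurospheres as well. Of 12 genes of cyclin-dependent kinase inhibitors and quiescence, 10 were higher in neurospheres and 1 in callosum. Cdkn1a (p21), the inhibitor induced by p53, stood at 27.8, 30.04 and 27.1 CPM in callosum and 681, 1079 and 1098 CPM in neurospheres (-5.07 ± 0.21, edgeR adjusted p = 2.20e-08). Cdkn2a, which encodes p16 and ARF, stood at 0.205, 0.264 and 0.205 CPM against 12.5, 12 and 12 CPM. Eda2r and Trp53inp1, both known p53 target genes, were among the 12 largest differences toward neurospheres over all genes. Trp53inp1 stood at 0.342, 0.858 and 0.684 CPM against 379.6, 372 and 407 CPM, and Eda2r had 1 count in callosum and 10531 in neurospheres, a ratio of 6800 (95% exact counting interval 1220 to 269000). Cdkn2d (p19), used in mature neurons, was the member higher in callosum (1.63 ± 0.18, GC-adjusted 0.59). In neurospheres, inhibitors and mitotic genes were thus both above callosum.

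Among genes of EGF and FGF signalling, 18 of 27 were higher in neurospheres and 4 in callosum. The feedback inhibitor Spry2 stood at 50.1, 56.3 and 48.6 CPM against 201, 205 and 189 CPM (-1.94 ± 0.10, GC-adjusted -0.83), and Dusp6, a phosphatase that switches off ERK, differed by -1.04 ± 0.28. Ccnd1, the cyclin through which growth factors start the cycle, stood at 83.5, 79.1 and 95.2 CPM against 1809, 986 and 884 CPM. Erbb3, a neuregulin receptor of oligodendrocytes, was the called member with the largest difference toward callosum (3.69 ± 0.25). Immediate early genes had no common direction (10 higher in callosum and 6 in neurospheres of 21). Npas4, the activity-induced factor of neurons, was higher in callosum (44.6, 88.7 and 83.9 CPM against 0.787, 1.01 and 0.692 CPM), while Fos was higher in neurospheres with a wide spread (18.6, 32 and 66.4 CPM against 93.6, 476 and 136 CPM, -2.59 ± 0.64). The Fos call was lost with no filter on low counts (edgeR adjusted p = 0.0507).

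Sterol synthesis genes were mostly higher in neurospheres. Of 32 genes of cholesterol synthesis and handling, 21 were higher in neurospheres and 10 in callosum (median -1.30). After GC adjustment the counts were 22 and 3. Hmgcs1, which makes the precursor of mevalonate, stood at 107, 166 and 138 CPM against 1190, 1473 and 1642 CPM (-3.38 ± 0.20, GC-adjusted -1.65). The members with the largest differences toward callosum were Cyp46a1, which converts cholesterol to 24-hydroxycholesterol in neurons (662, 585 and 606 CPM against 21.5, 22.3 and 28.3 CPM), and Abcg1, a sterol exporter (4.25 ± 0.11). Of 27 fatty acid and sphingolipid genes, 18 were higher in neurospheres and 6 in callosum. Scd2, a desaturase, stood at 1590, 1857 and 1806 CPM against 6236, 7790 and 8614 CPM (-2.11 ± 0.15). Opposite to it, Fa2h, which hydroxylates the fatty acids of myelin lipids, stood at 396, 568 and 487 CPM against 21.6, 20.3 and 20.7 CPM, and Gal3st1, the sulfatide sulfotransferase, differed by 4.43 ± 0.15 (GC-adjusted 2.81). Fasn, the fatty acid synthase, was higher in callosum as counted and higher in neurospheres after GC adjustment (0.62 ± 0.10, GC-adjusted -0.99).

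Glycolysis, hypoxia and antioxidant genes were mostly higher in neurospheres, with isoforms divided between the sources. Of 26 glycolysis genes, 18 were higher in neurospheres and 6 in callosum. Gpi1, which converts glucose 6-phosphate, was among the 8 highest neurosphere genes per kilobase (921, 852 and 915 CPM against 5521, 7153 and 7790 CPM). Hk2, the hexokinase of proliferating and hypoxic cells, stood at 4.79, 4.03 and 5.07 CPM against 86.3, 109.7 and 146 CPM (-4.62 ± 0.22). Hk1, the hexokinase of adult brain, was higher in callosum as counted (1.18 ± 0.12, GC-adjusted -0.30). Ldha and Ldhb, the 2 lactate dehydrogenase subunits, had opposite signs. Ldha differed by -2.65 ± 0.11 and Ldhb by 0.97 ± 0.11 (GC-adjusted 0.53). Eno2, the enolase of neurons, was higher in callosum (5.49 ± 0.37). Of 16 hypoxia and HIF genes, 14 were higher in neurospheres and 2 in callosum (median -3.30). Vegfa, the vessel growth factor, stood at 136, 119 and 138 CPM against 1139, 2627 and 3027 CPM, and Adm, adrenomedullin, at 1.71, 1.58 and 2.05 CPM against 46.3, 171 and 155 CPM. The exceptions were Ndrg1, which oligodendrocytes also use, and Epas1 (HIF-2 alpha), high in vessels (1.92 ± 0.17 and 1.12 ± 0.10, GC-adjusted 0.41). Of 25 antioxidant genes, 18 were higher in neurospheres and 5 in callosum. Hmox1, the haem oxygenase induced by oxidative stress, stood at 5.95, 4.95 and 6.43 CPM against 208, 181 and 214 CPM (-5.12 ± 0.14). Of 25 genes of serine, one-carbon and nucleotide synthesis, 22 were higher in neurospheres, such as the mitochondrial folate enzyme gene Mthfd2 (-2.58 ± 0.16). Phgdh, the first enzyme of serine synthesis, was slightly higher in callosum as counted (0.34 ± 0.11, GC-adjusted -0.96) and changed sign when only library size was used for scaling (-0.165). Of its 50-base stretches, 63.1% are shared with other genes.

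Genes of the respiratory chain and the ribosome had members in both directions. Of 47 respiratory chain genes, 24 were higher in neurospheres and 16 in callosum, and the median changed sign with GC adjustment (-0.38 to 0.15). Cox4i1, a subunit of cytochrome oxidase, stood at 1.47 ± 0.11 (GC-adjusted 0.12) and Ndufa4, another subunit, at -0.60 ± 0.12 (GC-adjusted 2.10). Of 77 ribosomal protein genes, 38 were higher in neurospheres and 18 in callosum. Many ribosomal protein genes share sequence with processed pseudogenes, such as 55.1% of the 50-base stretches of Rps6, so their counts are uncertain.

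**Figure D3:**
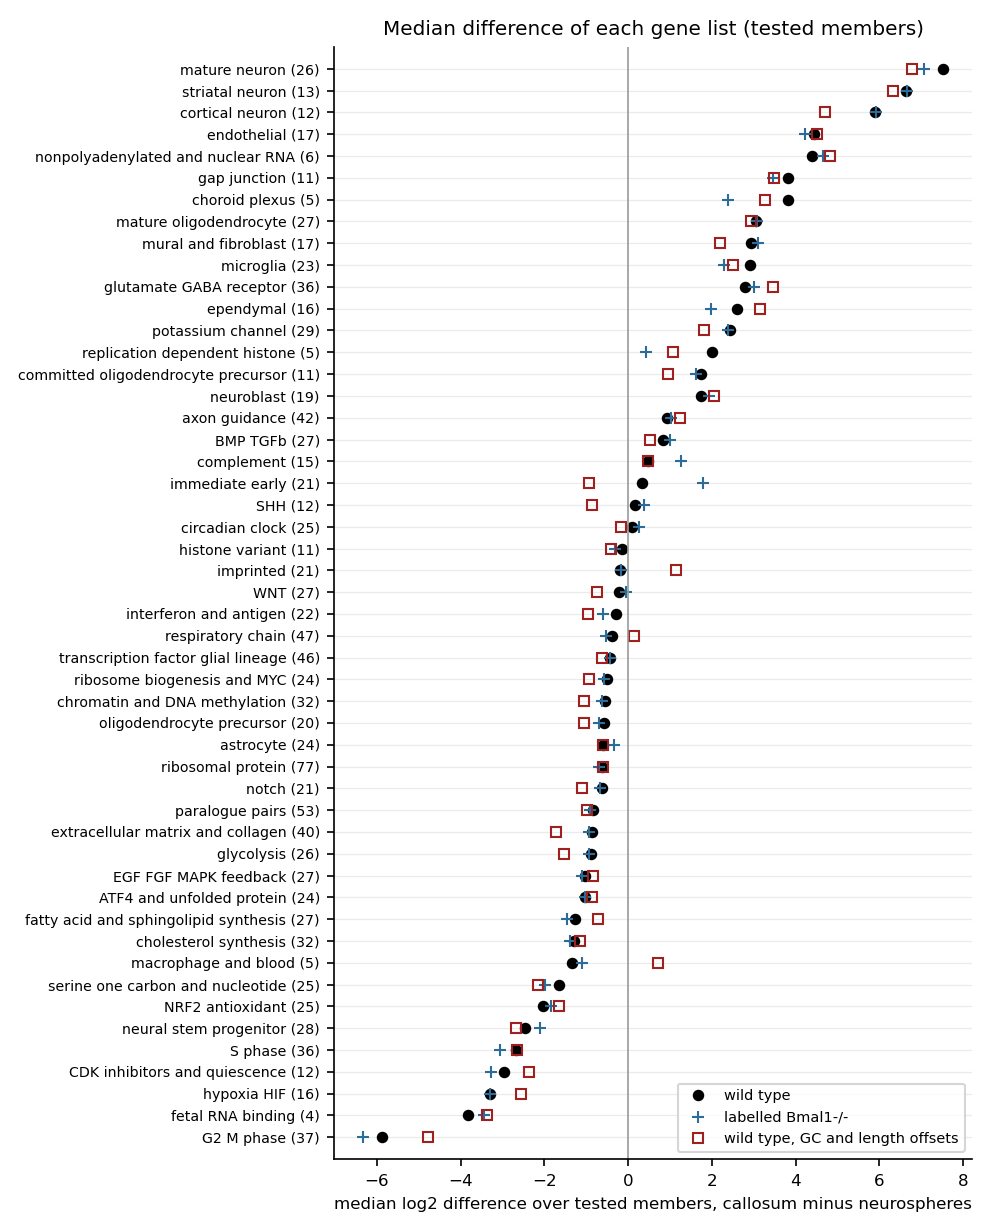
Median log2 difference (horizontal axis, callosum minus neurospheres) of the tested members of 50 gene lists, with the number tested in brackets. Circles are wild type as counted, crosses the libraries labelled Bmal1-/-, and open squares wild type after GC and length offsets; neuronal lists lie at the top with medians of up to 7.52 and G2 and M phase at the bottom with -5.88.

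Genes of neuronal signalling followed the neuronal markers. Of 36 glutamate and GABA receptor genes, 27 were higher in callosum and 4 in neurospheres. Grin1, the obligatory NMDA receptor subunit, stood at 1858, 1480 and 1741 CPM against 9.31, 11 and 14.8 CPM, while Gria2, an AMPA receptor subunit, was not called (91, 93.3 and 91.8 CPM against 70.6, 100.5 and 129.6 CPM, -0.12 ± 0.19, GC-adjusted 2.89). Gabrg1, a GABA receptor subunit, was the member furthest toward neurospheres (-6.40 ± 0.24, GC-adjusted -3.37). Of 29 potassium channel genes, 20 were higher in callosum and 7 in neurospheres. Kcnj10 (Kir4.1), the glial channel that buffers potassium, was among the latter, at 161, 173 and 166 CPM against 490.5, 492 and 447 CPM. Of 11 gap junction genes 8 were higher in callosum.

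Some related genes with one member used in neurons or myelinating cells were divided between the sources (pairs chosen for display with their values known), and others were not. Of the 53 tested genes of such families, 19 were higher in callosum and 32 in neurospheres. The axonal kinesin Kif5a stood at 6328, 7281 and 6907 CPM against 17.8, 15.8 and 19.3 CPM, while its widely used relative Kif5b differed by -0.70 ± 0.10 (GC-adjusted 1.5). Actl6b and Actl6a, which replace each other in a chromatin remodeller when neurons leave the cycle, differed by 8.12 ± 0.22 and -2.58 ± 0.26. Ezh1 and Ezh2, alternative histone methyltransferases, differed by 1.92 ± 0.17 and -4.96 ± 0.22, and the lamin genes Lmna and Lmnb1 by 1.64 ± 0.13 (GC-adjusted 0.85) and -3.18 ± 0.18. The tubulins Tubb4a and Tubb6 differed by 3.93 ± 0.12 (GC-adjusted 2.60) and -4.82 ± 0.21. Other families moved one way, such as Dnm1 and Dnm2, the dynamins of synapses and of all cells (6.82 ± 0.25 and 0.68 ± 0.11, GC-adjusted -0.84), and Rbl1 and Rbl2, relatives of the retinoblastoma protein (-4.27 ± 0.28, GC-adjusted -2.37 and -0.79 ± 0.12, GC-adjusted -0.20). Opposite signs held after GC adjustment for the divided pairs named here, except Kif5a and Kif5b, which then had the same sign.

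**Figure D4:**
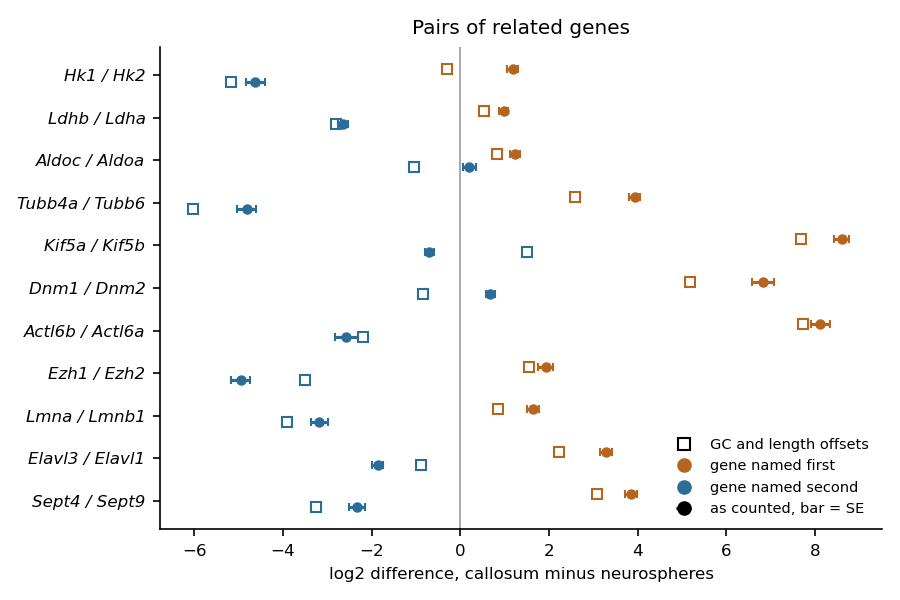
Log2 difference (horizontal axis, callosum minus neurospheres) of 11 pairs of related genes. Filled circles are values as counted with bars of 1 SE, open squares are values after GC and length offsets; Kif5a lies at 8.60 and Kif5b at -0.70.

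Matrix genes were mostly higher in neurospheres, 22 of 40 against 13. Tnc (tenascin C), a matrix protein of the SVZ, stood at 8.35, 11.2 and 7.87 CPM against 1129, 588 and 596 CPM (-6.39 ± 0.32), and Cd44, the hyaluronan receptor, at 0.205, 0.858 and 0.548 CPM against 212, 182 and 174 CPM. Ncan (neurocan), a proteoglycan of immature matrix, stood at 509.8, 447 and 478 CPM against 2979, 2902 and 3141 CPM. Igfbp2, which binds insulin-like growth factors, was among the 8 highest neurosphere genes per kilobase (27.6, 20.1 and 24.6 CPM against 1130, 1344 and 1429 CPM). Axon guidance genes were mostly higher in callosum (26 of 42, with 8 in neurospheres). The ligand genes Ntn1 and Slit3 went opposite ways: Ntn1 (netrin 1) stood at 21.7, 19.5 and 22.9 CPM against 297, 296 and 309 CPM, and Slit3 at 68.5, 57.5 and 54.4 CPM with 2 counts in all over the neurosphere libraries.

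Developmental signalling pathways had members on both sides. Of 21 Notch genes, 10 were higher in neurospheres and 6 in callosum. The ligand gene Dll1 (10.7, 12.6 and 13.1 CPM against 35, 75.7 and 82 CPM) and the receptor gene Notch1 (-1.79 ± 0.13, GC-adjusted -3.27) were higher in neurospheres. For sonic hedgehog, the target gene Gli1 was higher in callosum (6.5, 4.69 and 6.3 CPM against 0.131, 0.0441 and 0.0865 CPM) and Smo, the signal transducer, in neurospheres (-2.43 ± 0.11, GC-adjusted -4.06). Of 27 BMP and TGF-beta genes, 14 were higher in callosum and 11 in neurospheres. The ligand gene Bmp4 had 10.1, 10.3 and 8.21 CPM in callosum and 0.0437, 0.0441 and 0.13 CPM in neurospheres. The BMP target Id3 differed by 1.66 ± 0.15 (GC-adjusted 0.65). Chrdl1 had the largest difference toward neurospheres (-4.43 ± 0.22, GC-adjusted -2.20). Of 27 WNT genes, 11 were higher in callosum and 12 in neurospheres, and after GC adjustment 5 and 16. The WNT effector Lef1 was higher in callosum (3.74 ± 0.22), as was the WNT target Axin2 as counted (1.09 ± 0.17, GC-adjusted -0.07). The receptor gene Fzd5 was higher in neurospheres (-2.52 ± 0.29). In the circadian clock list 10 genes were higher in callosum and 10 in neurospheres of 25. Npas2, which can stand in for CLOCK, differed by 4.12 ± 0.15, while Arntl itself was not called (-0.26 ± 0.13, GC-adjusted 0.08). Arntl was called higher in neurospheres without neurosphere replicate 1 (-0.37), by library size alone (-0.768) and with no filter (-0.313).

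Imprinted genes had no common direction but included some of the largest opposite differences. Of 21 tested, 7 were higher in callosum, 9 in neurospheres and 5 were not called (median -0.205, GC-adjusted 1.14). Meg3, a long noncoding RNA from an imprinted cluster on chromosome 12 that neurons express, stood at 5013, 4250 and 4175 CPM against 12.2, 10.1 and 9.39 CPM (8.73 ± 0.19), and Mirg, from the same cluster, at 8.44 ± 0.25. H19, a fetal noncoding RNA on chromosome 7, stood at 0.274, 0.198 and 0.137 CPM against 30.6, 80.2 and 85.6 CPM (-8.29 ± 0.58). Its neighbour Igf2 had the opposite sign (3.44 ± 0.21, GC-adjusted 2.03), although 75.9% of the 50-base stretches of Igf2 also occur in transcripts of another gene. Malat1, a nuclear RNA, was higher in neurospheres (413, 364 and 418 CPM against 2473, 3397 and 2580 CPM, -2.82 ± 0.16, GC-adjusted -0.88). Of 16 nuclear or nonpolyadenylated RNAs of the list with deposited counts, 6 were tested. Among these, Malat1 was the only 1 higher in neurospheres, and 5 were higher in callosum (median 4.38). The highest value of that list, 8.73, equals that of Meg3. Xist, which is outside the list, was higher in neurospheres. Meg3, H19, Igf2 and Malat1 overlap genes on the opposite strand, whose reads cannot be told apart here.

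Over all genes of at least 20 CPM, the 12 largest called differences toward callosum were those of Fxyd7, Neurod6, Slc6a7, Cplx3, Ttr, Sowahb, Ly6c1, Krt80, Cck, Neurod2, Sst and Galnt9. Fxyd7, a regulator of the sodium pump in neurons, stood at 471, 301 and 468 CPM with no count in neurospheres, at least 9431-fold higher. Slc6a7, the brain proline transporter, and Cplx3, a complexin of synaptic release, also had no count in neurospheres and were at least 2429-fold and 2018-fold higher. Cck, the cholecystokinin gene of interneurons and some projection neurons, stood at 547, 322 and 519.6 CPM and had 1 count over the neurosphere libraries. Toward neurospheres the 12 included Xist, Ccnb1, Eda2r, Trp53inp1, Fabp7, Mmp12 and A2m. Mmp12, a macrophage elastase, had no count in callosum and stood at 25.1, 46.7 and 37.9 CPM, at least 541-fold higher in neurospheres. A2m, the protease inhibitor alpha-2-macroglobulin, stood at 1.03, 0.528 and 0.137 CPM against 458, 413 and 402 CPM (-9.54 ± 0.31).

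Among the neurosphere libraries, replicate 1 stood apart. Of 7453 genes with a mean of at least 20 CPM in neurospheres, 91 (41 above and 50 below) lay at least 2-fold from both others in replicate 1, against 5 in replicate 2 and 0 in replicate 3. The S phase genes summed to 1790 CPM in replicate 1 and to 942 and 823 CPM in the others. Hypoxia and HIF genes summed to 3310 against 5230 and 6040 CPM. Gfap, Nes, Tnc and Ccnd1 were highest and Vegfa and Pdgfra lowest in replicate 1, as their values above show. Replicate 2 had the highest Fos, and without it the Fos difference was -1.57. Without replicate 1, Dusp6 differed by -0.64 and 3 S phase genes in place of 1 were higher in callosum.

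The same contrast in the libraries labelled Bmal1-/- gave closely similar values. These libraries share no sample with the wild-type comparison. Over 14591 genes tested in both, the log2 differences correlated with Pearson r 0.98 and Spearman rho 0.984, a description over genes. Of 14883 genes, 10811 were called (72.6%). Among the genes tested in both sets, 10427 were called in both with the same sign, which is 83.1% of the wild-type calls and 98.2% of the calls of the other set among those genes. Calls of opposite sign numbered 10. The GC trend was also there (rho 0.569), as was the pattern of Xist (1 and 2 counts in callosum, 13850, 28506 and 54290 in neurospheres). The test of the difference between the 2 contrasts called 2 of 15322 genes (0.0131%), with 656 (4.28%) at an unadjusted p under 0.05 in edgeR and 37 called by DESeq2.

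**Figure D5:**
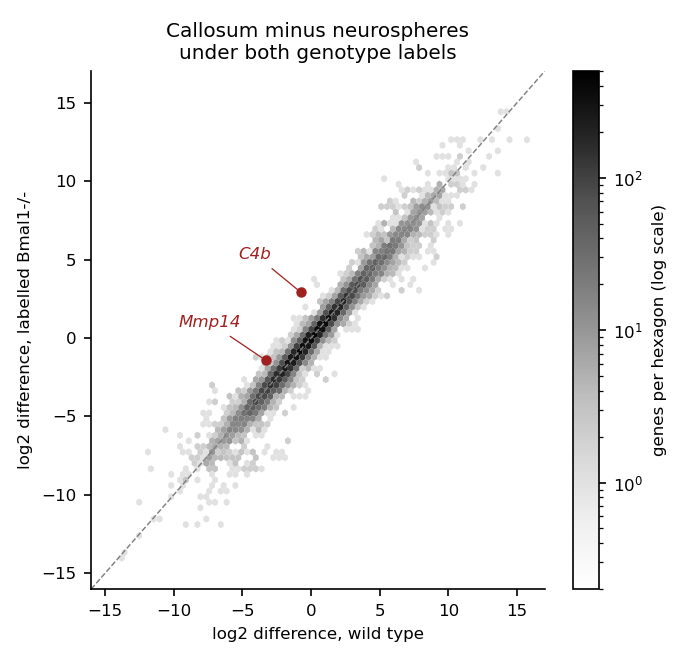
Log2 difference, callosum minus neurospheres, in wild-type libraries (horizontal axis) and in libraries labelled Bmal1-/- (vertical axis) for 14591 genes; darker hexagons hold more genes and the dashed line marks equal values. C4b and Mmp14, the 2 genes called in the test of the difference, lie above the line.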

How the data were processed

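RNA from 11 libraries was sequenced on a BGISEQ-500, per the labels' protocols, which name poly(A) selection and rRNA depletion without saying which library had which. The authors deposited read counts per gene for each library. STAR 2.7.1a and build mm10 are named, per the submitters' processing notes, without their settings or the annotation. The files list 24411 gene symbols, and the unstranded count was used. The 4 rows that name no gene were left out: unmapped reads (7.77% to 16.2% of reads in the 6 wild-type libraries), reads in no gene (9.25% to 16.6%) and ambiguous reads (0.772% to 1.22%). Multi-mapping reads are listed as 0, so genes with near-identical copies are uncertain. Reads fell equally on either strand (49.6% to 50.8% on the first), so antisense pairs cannot be told apart.

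Genes were filtered with filterByExpr, scaled by TMM and tested with edgeR 4.0.16's quasi-likelihood test (R 4.3.3, limma 3.58.1), with Benjamini-Hochberg adjusted p under 0.05 over all tested genes as a call. The SE is the log2 difference divided by the square root of its F. GC-adjusted values come from the same test with per-library loess offsets on transcript GC content, then length, chosen after seeing the data. The test of the difference between genotype labels used all 11 libraries and an interaction term. Other scalings, filters, DESeq2 1.42.0, limma-voom, a replicate block and leaving out each library were alternatives. A gene with no count in a group was given a floor of 3 counts over the group; exact Clopper-Pearson counting intervals (95%) cover counting error only. Since the labels do not tie replicates to different animals or dishes, the p-values speak only to the spread of these libraries, which may be technical. Transcript length and GC content were those of the longest GENCODE transcript of each gene, and levels per kilobase used that length. Shared 50-base stretches and opposite-strand overlap also came from GENCODE. Gene positions and promoters came from RefSeq, GRCm38.p6. Named genes were, by rule, the anchor genes of each list, the 2 called members with the largest difference per direction and the highest per kilobase in each source, related-gene pairs, and over all genes the 12 largest non-overlapping called differences per direction (mean of at least 20 CPM in the higher source) and the 8 highest per kilobase in each source; any others are marked. The comparison, the members and the 50 lists were chosen with earlier results of these data known. The scripts were tested on simulated counts in which few genes changed, as many up as down. That setting does not cover scaling where most genes differ.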

Additional observations from a re-analysis of the deposited data

Results flagged for a closer look

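Differences between callosum and neurospheres that were not the same under both genotype labels were found for 2 genes by the interaction test, and both values are pulled by the callosum libraries. C4b, a complement component, stood at 34.3, 48.9 and 36.4 CPM in wild-type callosum and at 66.7, 68.9 and 66.5 CPM in wild-type neurospheres. In libraries labelled Bmal1-/-, it stood at 401 and 533 CPM in callosum and at 47.4, 83.6 and 53.3 CPM in neurospheres. The log2 difference between sources was thus -0.76 in wild type (GC-adjusted -2.06) and 2.93 in the other set, and their gap was -3.67 ± 0.33 (SE, edgeR adjusted p = 0.00165). Of the 50-base stretches of C4b, 35.2% are shared with other genes. Mmp14, a membrane-bound matrix metalloprotease, stood at 25.9, 26.4 and 24.9 CPM in wild-type callosum and at 88.3 and 117 CPM in callosum labelled Bmal1-/-. In neurospheres it ranged from 224 to 274 CPM in wild type and from 252 to 286 CPM in the other set. Its gap was -1.89 ± 0.22 (edgeR adjusted p = 0.0115). The callosum set labelled Bmal1-/- has 2 libraries, and what else sets them apart was not tested.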

How the results depend on the processing

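The number of genes called between the sources lay between 10641 (a test against a 1.5-fold difference) and 13707 (no filter), and between 12341 and 13057 without any one library. Scaling by library size alone moved the median log2 of all genes by -0.505 and the share of calls higher in callosum from 49.0% to 39.3% (4979 against 7696 genes). No pairing by replicate number was seen: deviations of same-numbered libraries correlated over genes at -0.0174, 0.0537 and -0.001. These values cannot settle whether such libraries shared an animal or a day, which the labels do not say. With the replicate block 6183 genes were called higher in callosum and 6374 in neurospheres. The 2 interaction calls were 37 by DESeq2, 8 after GC adjustment, and 1 to 10 without any one library (1 without wild-type neurosphere replicate 2, wild-type callosum replicate 2 or 3 or Bmal1-/- labelled callosum replicate 2, and 10 without Bmal1-/- labelled neurosphere replicate 1); the cause was not tested. Where an arm kept 1 library, it was assumed to vary like the other groups.

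These list medians changed sign. After GC adjustment they were 0.72 for macrophage and blood genes, 0.146 for the respiratory chain, -0.928 for immediate early genes, -0.857 for sonic hedgehog, -0.177 for the clock and 1.14 for imprinted genes. By library size alone they were -0.18 for immediate early genes, -0.343 for sonic hedgehog, -0.416 for the clock and -0.0295 for complement. Without wild-type neurosphere replicate 1 they were 0.0088 for WNT and -0.211 for the clock, with -0.378 to 0.0088 and -0.211 to 0.245 as the ranges without any one library.

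Among named genes, GC adjustment changed the sign of Apoe (-1.22), Arntl (0.0819), Aspa (0.474), Axin2 (-0.0666), Dcx (0.498), Dnm2 (-0.841), E2f1 (-0.368), Fasn (-0.994), Foxj1 (-1.68), Gfap (-0.345), Gria2 (2.89), Hes5 (-0.481), Hk1 (-0.3), Kif5b (1.5), Ndufa4 (2.1), Pdgfra (0.324), Phgdh (-0.965) and Slc1a2 (0.662). Library size alone changed that of Apoe (-0.16), Foxj1 (-0.175) and Phgdh (-0.165). Genes not called changed sign in single settings: Pdgfra with limma-voom (0.146) and the replicate block (0.103). Without any one library Pdgfra ranged from -0.544 to 0.257, Gria2 from -0.336 to 0.0915 and Olig1 from -0.388 to 0.0402. Gria2 was called higher in neurospheres by library size alone (-0.624) and without wild-type neurosphere replicate 1 (-0.336), and higher in callosum after GC adjustment (2.89). Olig1 was called higher in neurospheres by library size alone (-0.715) and after GC adjustment (-2.08). Hes5 was not called without neurosphere replicate 2 or any one callosum library, nor by DESeq2. With no filter the calls of Fos (edgeR adjusted p = 0.0507) and Ttr (0.0525) were lost, and in the model of all 11 libraries those of Kif5b (0.0652), Phgdh (0.1) and Slc1a2 (0.127). The floor of 3 counts is 0.152 to 0.171 CPM per library before TMM scaling.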
